A study of Mus musculus with 2 samples.

Results

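The 10 miRNA genes described here are best known from nerve cells and from the glia that wrap them, and they were measured in whole skeletal muscle. They are Mir338, Mir128-1, Mir128-2, Mir132, Mir212, Mir137, Mir7b, Mir9-1, Mir9-2 and Mir9-3, picked by name from the 2202 annotated miRNA genes of the deposited tables. The choice was made with their counts in these libraries already known, so their levels and their ratios between libraries are descriptions and carry no test. The libraries are microRNA-seq of the gastrocnemius, a hindlimb calf muscle, from male mice of the hybrid strain B6CASTF1/J (C57BL/6J crossed with CAST/EiJ) that were 10 days old. There is 1 group of 2 libraries, called replicates 1 and 2, with no treatment and no second tissue. The labels number the animals separately but give both the same donor entry. The labels name the tissue and no sorted cells, so nerve, vessel and blood cells are part of each sample, and fewer cells of a type cannot be told apart from less RNA per cell.

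Each miRNA gene encodes a hairpin whose arms are cut out as mature miRNAs of about the length of the reads. A mature miRNA recognises its targets mainly through its seed, bases 2 to 8 from the 5′ end. A muscle contains motor and sensory axons and the Schwann cells around them, while the cell bodies of those neurons lie in the spinal cord and the dorsal root ganglia. miR-338 is known to promote the maturation of myelinating glia of the central nervous system together with miR-219. miR-128, miR-132, miR-212 and miR-137 are known from neurons, where miR-132 and miR-212 are induced by activity through the factor CREB, and miR-9 is known from neural progenitors. miR-7 is abundant in neuroendocrine cells. None of these is strictly limited to nerve, and miR-128 is also known from skeletal muscle.

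The mature arms below are shown because they decide which reads could be counted for a single gene. All are from RefSeq (GRCm38.p6), written 5′ to 3′ with the seed in capitals, and all 10 genes were matched by symbol.
miR-338-3p: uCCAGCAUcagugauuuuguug
miR-128-3p: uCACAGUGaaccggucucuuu
miR-128-1-5p: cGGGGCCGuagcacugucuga
miR-128-2-5p: gGGGGCCGaugcacuguaagaga
miR-132-3p: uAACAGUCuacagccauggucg
miR-212-3p: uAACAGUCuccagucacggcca
miR-137-3p: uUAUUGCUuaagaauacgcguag
miR-7b-5p: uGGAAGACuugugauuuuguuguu
miR-9-5p: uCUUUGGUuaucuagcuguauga
miR-9-3p: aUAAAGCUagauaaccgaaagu
Mir132 and Mir212 share the seed of their 3p arms, which are identical at 17 of 22 positions and differ by A10C, C14U, U17C, U20C and G22A (miR-132-3p base, position from the 5′ end, miR-212-3p base). Both Mir128 genes carry the same 3p arm, and all 3 Mir9 genes carry the same pair of arms. The 5p arms of the Mir128 genes share their seed but differ elsewhere, at 5 of 21 positions.

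The arms fell into 3 kinds. Mir338, Mir132, Mir212, Mir137 and Mir7b have arms that each occur in 1 annotated hairpin only. The Mir128 genes have 1 such arm each, the 5p arm, while miR-128-3p occurs in 2 hairpins. The Mir9 genes have none, since miR-9-5p and miR-9-3p occur in 3 hairpins. The deposited counts leave out reads that match several genomic places, which were 47.0% of the reads of replicate 1 and 48.0% of those of replicate 2. A read that lies wholly inside a shared arm therefore has no gene in these tables.

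The hairpins of the multi-copy genes show where the shared letters lie, given here in capitals wherever a stretch of at least 20 nt is also found in another annotated miRNA hairpin.
Mir128-1: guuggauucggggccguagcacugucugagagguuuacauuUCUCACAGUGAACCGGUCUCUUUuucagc
Mir128-2: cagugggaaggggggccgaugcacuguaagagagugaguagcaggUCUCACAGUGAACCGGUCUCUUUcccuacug
Mir9-1: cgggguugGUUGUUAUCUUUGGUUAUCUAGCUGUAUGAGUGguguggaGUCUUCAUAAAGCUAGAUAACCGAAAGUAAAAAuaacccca
Mir9-2: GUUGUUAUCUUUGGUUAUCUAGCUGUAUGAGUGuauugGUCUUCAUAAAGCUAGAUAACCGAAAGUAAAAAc
Mir9-3: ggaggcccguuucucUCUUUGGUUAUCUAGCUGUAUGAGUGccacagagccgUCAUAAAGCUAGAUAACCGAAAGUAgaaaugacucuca
The stretch is 23 nt between Mir128-1 and Mir128-2 and covers the whole of miR-128-3p with 2 bases before it. Mir9-1 and Mir9-2 each have a pair of shared stretches of 33 nt, 1 covering miR-9-5p and 1 covering miR-9-3p. In Mir9-3 the stretch over miR-9-5p is 26 nt and the one over miR-9-3p is 25 nt. These 5 of the 10 genes share at least 20 nt, and their counts are uncertain for that reason. Mir7b shares 14 nt with Mir7-1 and Mir7-2, and the remaining 4 genes share no stretch of 14 nt or more.

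Together the 10 genes took a small part of the miRNA counts, led by Mir338 and Mir128-1. Replicate 1 held 3999172 counts assigned to miRNA genes and replicate 2 held 5062714. Of these, 4449 in replicate 1 and 5875 in replicate 2 belonged to the 10 genes. The share was 0.111% in replicate 1 (exact binomial 95% interval 0.108 to 0.115) and 0.116% in replicate 2 (0.113 to 0.119), or 0.114% ± 0.0034 (SD, n = 2). Such intervals cover the counting error of the reads within a library only, and no difference between animals. The reads carry no molecular identifiers, so repeat copies of a molecule cannot be told from separate molecules, and the intervals can be too narrow. For scale, Mir206, whose expression marks skeletal muscle, averaged 210-fold the level of Mir338, so a miRNA gene known from the labelled tissue was present.

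Of the 10 genes, 7 reached at least 10 counts in each library, against 14.2% of all 2202 annotated miRNA genes. Levels are given as counts per 1000000 assigned counts (CPM). A read stands for 1 mature RNA whatever the hairpin's length, so levels were not divided by length. Small RNA libraries are known to take up some sequences better than others, and the levels were not corrected for this. The levels spanned from 447 CPM down to 0, with a median over the 10 genes of 32.6 CPM as the mean of both libraries. That median, which lies between Mir137 and Mir7b, was 16.9 CPM in replicate 1, against 48.4 CPM in replicate 2. Mir338, Mir128-1, Mir128-2 and Mir132 held 96.6% of the counts of the 10 genes in replicate 1 and 91.4% in replicate 2.

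By reads placed at a single gene, Mir338 had the highest level of the 10 genes; reads wholly inside miR-128-3p are counted for neither Mir128 gene. Mir338 lies on chromosome 11 (mm10, 120014765 to 120014862, minus strand) in an intron of Aatk, a kinase gene expressed in the nervous system. It had 1892 counts in replicate 1 and 2132 counts in replicate 2, which is 473 and 421 CPM (447 ± 37 CPM, SD, n = 2). It ranked 99th of all miRNA genes by mean level. The genes next to it in level were Mir181c, just above at 494 ± 22 CPM, and Mir15b, just below at 428 ± 10 CPM.

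On the opposite strand, Mir3065 overlaps Mir338 over 87 nt, and its 5p arm lies opposite miR-338-3p. Mir3065 had 5 counts in replicate 1 and 13 in replicate 2 on its own strand. The Mir338 locus therefore gave reads almost wholly from the Mir338 strand in both libraries. Where reads were counted without regard to strand, both genes are listed at 0, since every read there lies in 2 genes.

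Mir128-1 and Mir128-2 followed, in a ratio that was nearly the same in both libraries. Mir128-1 lies on chromosome 1 (128202361 to 128202430, plus strand) in an intron of R3hdm1. Mir128-2 lies on chromosome 9 (112118636 to 112118711, minus strand) in an intron of Arpp21, which encodes a phosphoprotein regulated by cyclic AMP in brain. Mir128-1 had 1522 counts in replicate 1 and 1986 in replicate 2, or 381 and 392 CPM. Mir128-2 had 519 counts in replicate 1 and 689 in replicate 2, or 130 and 136 CPM. Each gene thus differed little between the libraries, and the genes did not overlap in level.

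Within a library, Mir128-1 had 2.93 times the counts of Mir128-2 in replicate 1 (exact interval 2.65 to 3.25) and 2.88 times in replicate 2 (2.64 to 3.15), and the intervals overlap widely. This ratio does not depend on the scaling of the libraries. It covers only reads that could be placed at one of the genes, and reads wholly within the shared stretch printed above are in neither. It is therefore no ratio of the miR-128-3p made from each gene. Summed, the pair reached 510 CPM in replicate 1, against 528 CPM in replicate 2, more than Mir338 in each library.

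Mir132 and Mir212 sit 203 bases apart on chromosome 11, in an intron of the same non-coding transcript, 1700016P03Rik, and were counted at very different levels. Mir132 (75173682 to 75173747, plus strand) had 365 counts in replicate 1 and 562 in replicate 2, or 91.3 and 111 CPM (101 ± 14 CPM, SD, n = 2). Mir212 (75173388 to 75173478, plus strand) had 17 counts in replicate 1 and 10 in replicate 2, or 4.25 and 1.98 CPM. Mir132 is the higher of the neighbours in both libraries, with no overlap of the levels. The gene just above Mir132 in level was Mir1a-2, of the muscle miRNA miR-1, at 102 ± 14 CPM, which differs from Mir132 by less than the SD. Mir1a-2 shares 28 nt of hairpin with Mir1a-1, so its count can lack reads of the shared stretch and is no level of miR-1.

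Mir132 had 21.5 times the counts of Mir212 in replicate 1 (exact interval 13.2 to 37.3) and 56.2 times in replicate 2 (30.3 to 118). The intervals overlap, and the width comes from the few Mir212 counts. The mean ratio of 38.8 ± 24.6 (SD, n = 2) therefore rests on small counts. Neither gene shares a stretch of 14 nt or more with another annotated hairpin. The cause of the difference was not tested.

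**Figure D1:**
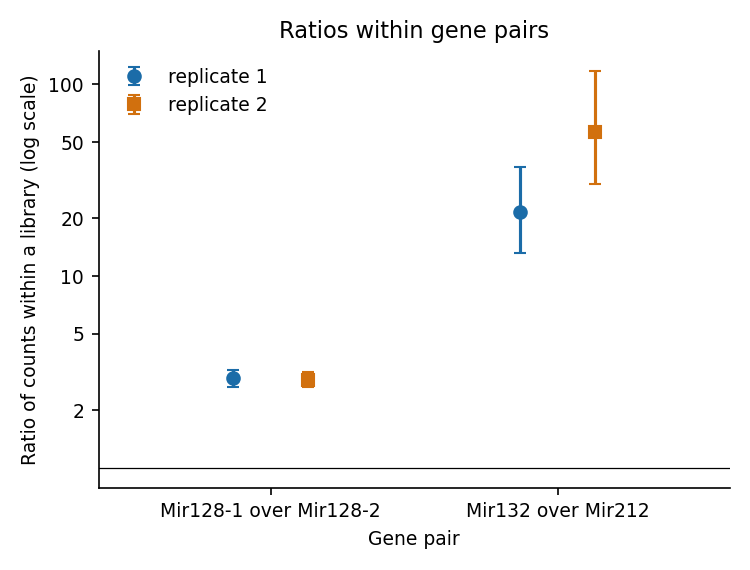
Ratio of the counts of 2 related genes within each library, on a log scale, for Mir128-1 over Mir128-2 and for Mir132 over Mir212; bars are exact 95% intervals of the counting error. The Mir128 ratios of the 2 libraries, 2.93 and 2.88, lie on top of each other, while the Mir132 ratios are 21.5 in replicate 1 and 56.2 in replicate 2 with overlapping intervals.

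Mir137 and Mir7b were the members whose levels differed most between the animals. Mir137 lies on chromosome 3 (118433857 to 118433929, plus strand) in an exon of the non-coding gene Gm26871. It had 118 counts in replicate 1 and 429 in replicate 2, or 29.5 and 84.7 CPM. Mir7b lies on chromosome 17 (56242988 to 56243098, plus strand), with no host gene on that strand. It had 14 counts in replicate 1 and 61 in replicate 2, or 3.50 and 12.0 CPM. Both were low in replicate 1 and high in replicate 2. Gm24155, an annotated miRNA gene 791 bases from Mir137, had no counts. Mir137 remained above Mir7b in each library, while the levels of Mir7b and Mir212 overlapped.

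The Mir9 genes were at or near the limit of the counts. Mir9-1 (chromosome 3, 88215598 to 88215686, in an intron of the non-coding gene Gm3764) had 0 counts in replicate 1 and 4 in replicate 2. Mir9-2 (chromosome 13, 83738814 to 83738885, in an exon of C130071C03Rik) had 0 counts in both. Mir9-3 (chromosome 7, 79505264 to 79505353, in an intron of Mir9-3hg) had 2 counts in each library. On the strand opposite to Mir9-1, the annotated miRNA gene Gm25641 covers all 89 nt of its hairpin and had no counts, and Mir3093, 340 bases away, had 0 counts in replicate 1 and 2 in replicate 2. Where no read was counted, 3 counts is taken as the limit, which is 0.75 CPM for replicate 1 and 0.593 CPM for replicate 2. The two-sided exact 95% intervals of a count of 0 reach somewhat higher, to 0.922 CPM in replicate 1 and 0.729 CPM in replicate 2. Having no count in either library, as Mir9-2 did, was the case for 68.4% of all annotated miRNA genes.

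These values limit the reads placed at a single Mir9 gene and say little of miR-9 itself, whose arms occur in all 3 hairpins. Over all 53 annotated genes with no arm of their own, 11.3% reached 10 counts in both libraries, against 26.7% of the 904 genes whose arms all occur in 1 hairpin. The 3 Mir9 genes belong to the first kind and 5 of the 7 detected genes to the second. The Mir128 genes belong to the 61 genes with some arms of their own, of which 57.4% were detected. Only genes with arms in RefSeq under the same symbol entered these counts, and their true levels can differ.

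**Figure D2:**
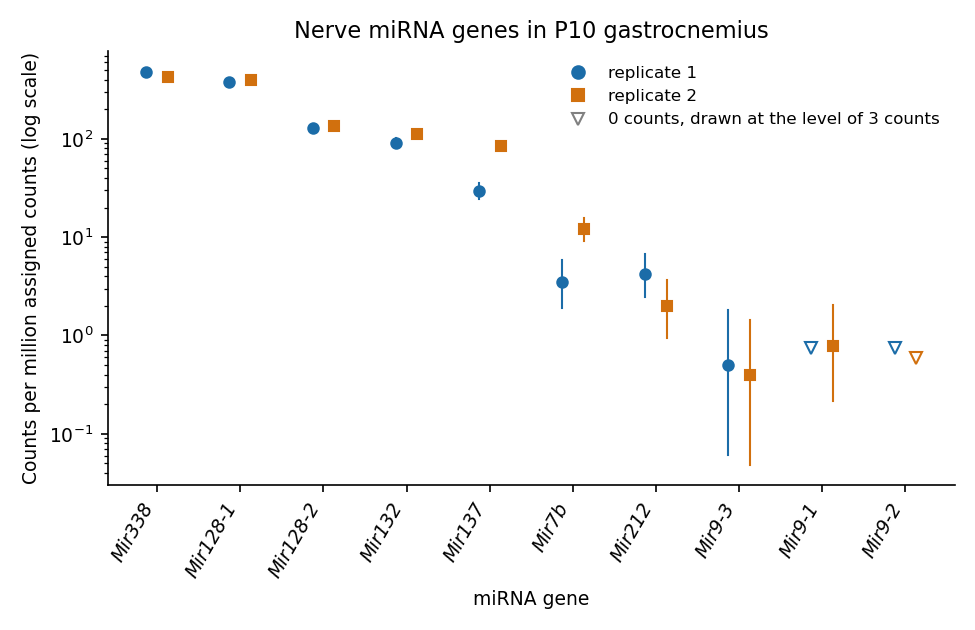
Level of each of the 10 nerve miRNA genes in replicate 1 and replicate 2, in CPM on a log scale, with exact 95% counting intervals; open triangles are genes with 0 counts, drawn at the level that 3 counts would give. The levels run from 473 and 421 CPM for Mir338 down to the Mir9 genes, and the widest gaps between the libraries among the detected genes are those of Mir137, at 29.5 and 84.7 CPM, and Mir7b, at 3.50 and 12.0 CPM.

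In the order of mean levels, Mir338, Mir128-1, Mir128-2, Mir132, Mir137, Mir7b, Mir212, Mir9-3, Mir9-1 and Mir9-2, most neighbours were separated, for reads that could be placed at a single gene. The range of the 2 libraries overlapped with that of the next gene only for Mir7b with Mir212, Mir9-3 with Mir9-1, and Mir9-1 with Mir9-2. Mir338 averaged 1.16-fold the level of Mir128-1, the smallest step among the 7 detected genes, and was the higher of the pair in each library. With 2 libraries, likeness between genes can be given for the level only. Around Mir137 stood Mir700 at 59.1 ± 9.5 CPM and Mir193b at 56.4 ± 5.8 CPM. Around Mir7b stood Mir1930 at 7.86 ± 1.62 CPM and Mir33 at 7.57 ± 3.44 CPM. By SD, neither pair varied between the libraries as much as the member between them, at 39.1 CPM for Mir137 and 6.04 CPM for Mir7b. Mir33 was not steady, with 10.0 CPM in replicate 1 and 5.14 CPM in replicate 2. It went in the direction opposite to Mir7b and past the 1.5-fold limit used below.

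Between the libraries, 3 of the 7 members that averaged 10 counts or more differed by at least 1.5-fold, after scaling with trimmed means of M-values (TMM). Of all 332 genes with that mean, 13.9% did. Mir137 and Mir7b were lower in replicate 1, a direction shared by 8.43% of all genes, and Mir212 was higher, as were 5.42%. All 3 also passed 2-fold, which 5.42% of all genes did. The share past 1.5-fold depends on the counts: at a mean of at least 50 it was 4.72% of genes, and 1 of 5 members. Mir7b and Mir212 lie below that mean, where such differences were more common. The ratios were among the values known when the genes were chosen, and the 1 library on each side allows no test.

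Mir7b was 3.58-fold lower in replicate 1 (log2 ratio -1.84, exact counting interval -2.80 to -0.99), and Mir137 was 2.99-fold lower (log2 ratio -1.58, interval -1.89 to -1.28). By the size of the ratio, Mir7b stood 4th and Mir137 9th of the 332 genes. Mir212 was 2.07-fold higher in replicate 1 (log2 ratio 1.05), but its interval of -0.16 to 2.34 includes 0, so this difference is within counting error.

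The 4 most abundant members differed little. Mir338 had a log2 ratio of 0.11 (interval 0.02 to 0.20), Mir128-1 of -0.10 (-0.20 to -0.01) and Mir128-2 of -0.13 (-0.29 to 0.04). Mir132 had a log2 ratio of -0.34 (-0.54 to -0.15), which is 1.27-fold lower in replicate 1. The counting interval left out 0 for 5 of the 7 members and for 44.3% of all 332 genes. An interval without 0 was thus common between these libraries and marks no difference particular to a gene. The median log2 ratio was -0.13 over the 7 members and 0.00 over all 332 genes. Without regard to sign, the medians were 0.34 for the members and 0.16 for all genes.

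Genes known from other cell types differed between the libraries in some lists and not in others. Summed CPM of the erythroid pair Mir451a and Mir144 was 1680 in replicate 1 and 4088 in replicate 2, and both genes passed 1.5-fold. The hepatocyte Mir122 stood at 103 CPM in replicate 1, against 272 CPM in replicate 2. The leukocyte list of 4 genes had 423 and 447 CPM in the same order, with no gene past 1.5-fold. The endothelial Mir126a had 55784 and 67925 CPM, and Mir143 with Mir145a, from smooth muscle, 24571 and 29713 CPM, again replicate 1 first. Mir143 alone made up 23930 and 29124 CPM of that sum, while Mir145a had 641 and 589 CPM, in the other direction. The 7 epithelial genes, of which 4 were detected, summed to 90.8 CPM in replicate 1, against 71.9 CPM in replicate 2. Among them Mir205 was past 1.5-fold higher in replicate 1, with 34 counts there and 18 in replicate 2 (log2 ratio 1.20, interval 0.33 to 2.11). The 9 skeletal muscle genes summed to 101176 CPM in replicate 1, against 88175 CPM in replicate 2, of which Mir206 alone made up 100599 and 87446 CPM in the same order. Of the 8 muscle genes that averaged 10 counts or more, 5 were lower in replicate 1. The median log2 ratio of the 8 was -0.25, opposite in sign to the sum, and 2 genes, Mir499 and Mir208b, were past 1.5-fold lower in replicate 1. In this list Mir1a-1 and Mir1a-2 share 28 nt with each other and can be undercounted. Shared stretches of the other genes of this list are not given here, so those genes can be undercounted too. The muscle values therefore cover only reads placed at a single gene and do not give the part of Mir206 in all muscle miRNA. The neuroendocrine Mir375 had 5.00 and 3.75 CPM in replicates 1 and 2. Whether any of these cells has a part in the Mir137 and Mir7b values was not tested.

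**Figure D3:**
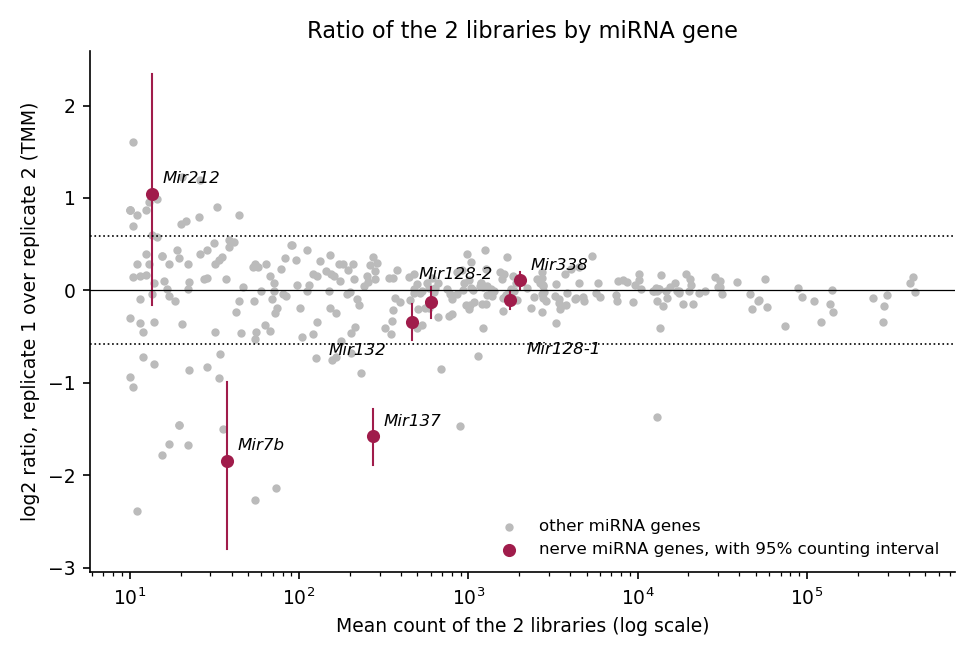
log2 ratio of replicate 1 over replicate 2 after TMM scaling against the mean count of both libraries (log scale) for each miRNA gene that averaged 10 counts or more and had a count in each library; nerve genes are coloured, with exact 95% counting intervals, and dotted lines mark 1.5-fold. Mir137 and Mir7b lie below the lower line with their whole intervals, Mir212 lies above the upper line with an interval that crosses 0, and Mir338, Mir128-1, Mir128-2 and Mir132 lie near 0.

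Mir7b has relatives outside the 10 genes with the same seed, Mir7-1 and Mir7-2, which both encode miR-7a-5p. That arm differs from miR-7b-5p at 1 of 23 compared positions, U10A (miR-7b base, position, miR-7a base), as the RefSeq arms show.
miR-7b-5p: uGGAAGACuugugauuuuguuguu
miR-7a-5p: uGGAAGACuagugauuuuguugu
Mir7-1 had 64 counts in replicate 1 and 78 in replicate 2, or 16.0 and 15.4 CPM, and thus the same level in both. Mir7-2 had 1 count in replicate 1 and 13 in replicate 2. These genes share 24 nt of hairpin with each other, so miR-7a-5p reads can be missing from both. By gene, the miR-7 seed summed to 19.8 CPM in replicate 1, against 30.0 CPM in replicate 2. The other seeds printed above occur in no arm of a further gene in the RefSeq table used.

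Other miRNA genes known from nerve were low, and the best known neuronal one was nearly without counts. Of 21 such genes in 4 lists, 7 were detected, against 14.2% of all 2202 annotated miRNA genes. Among genes with RefSeq arms, the detected share was 26.7% where every arm occurs in 1 hairpin, 57.4% where some do and 11.3% where none does. The lists were written with earlier results of these data known. The CPM of the 21 genes summed to 108 in replicate 1 and 109 in replicate 2, against 1112 and 1160 for the 10 genes. Of the 21 genes, 12 have a stretch of 20 nt or more in common with another annotated hairpin and can be undercounted. Mir124a-1, of the neuronal miR-124, had 0 counts in replicate 1 and 1 in replicate 2. Its copies Mir124a-2 and Mir124a-3 had 0 in both, and each of the 3 genes shares 32 nt with another.

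Among the other neuronal genes, Mir383 stood at 4.00 CPM in replicate 1, against 10.9 CPM in replicate 2, a log2 ratio of -1.50 (interval -2.40 to -0.68), in the direction of Mir137 and Mir7b. Mir7-1, Mir383, Mir384 and Mir153 led this list of 12 genes, which summed to 25.5 CPM in replicate 1, against 37.5 CPM in replicate 2. Of its 3 genes that averaged 10 counts or more, 1 passed 1.5-fold. Mir384 stood at 2.00 CPM in replicate 1, against 2.37 CPM in replicate 2, and Mir153 had 1.25 and 1.58 CPM in the same order. Mir383 shares no hairpin stretch with another miRNA gene.

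The glial Mir219a-1 had 14 counts in replicate 1 and 31 in replicate 2, and Mir219a-2 had 16 and 25 in the same order. The genes share 22 nt, and the counting intervals of both ratios include 0. Their levels of 4.81 ± 1.85 and 4.47 ± 0.66 CPM (SD, n = 2) lay far below the 447 CPM of Mir338, which has no shared stretch. Because miR-219a-5p occurs in both Mir219a hairpins, these counts can lack its reads and are no level of miR-219. Mir219b had 0 counts in both libraries. The 4 genes of this list, Mir3065 among them, summed to 8.75 CPM in replicate 1, against 13.6 CPM in replicate 2.

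The motor neuron genes Mir218-1 and Mir218-2 had 17 counts together in each library, which is 4.25 CPM in replicate 1, against 3.36 CPM in replicate 2, and share 22 nt. By reads placed at a single gene, the cluster of Mir183, Mir96 and Mir182, known from sensory neurons, was the highest of the 4 lists. It had 69.3 CPM in replicate 1, against 54.7 CPM in replicate 2. Mir183 had 39.3 and 28.8 CPM, Mir182 29.0 and 24.7 CPM and Mir96 1.00 and 1.19 CPM, in the same order. None of the 3 passed 1.5-fold, and Mir183, with a log2 ratio of 0.39 (interval 0.05 to 0.72), lay in the direction opposite to Mir137. Higher levels in replicate 2 were thus not shared by all nerve genes. Of the 8 genes of the 4 lists that averaged 10 counts or more, 2 were past 1.5-fold lower in replicate 1 and 0 past 1.5-fold higher. The median log2 ratio of these 8 genes was -0.15. The sensory cluster is the only one of the 4 lists whose genes share no stretch with another annotated hairpin. Each other list holds genes that share 20 nt or more and can be undercounted. The ranking of the lists therefore gives no ranking of the mature miRNAs.

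**Figure D4:**
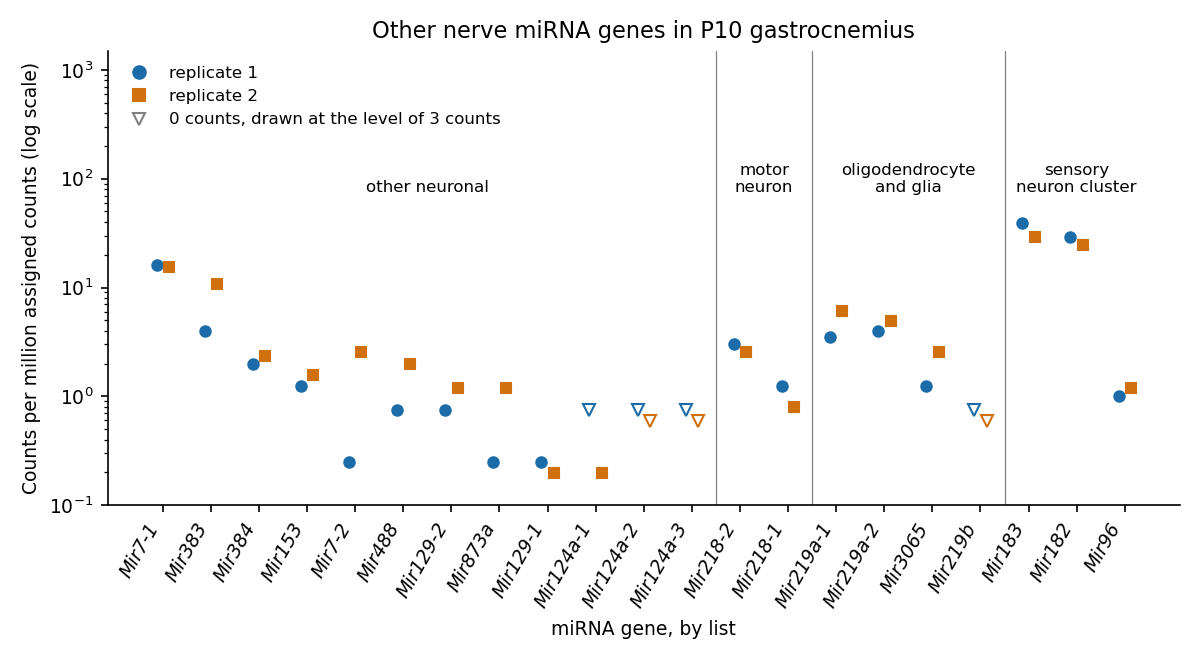
Level of 21 other miRNA genes known from neurons, motor neurons, glia and sensory neurons in replicate 1 and replicate 2, in CPM on a log scale; open triangles are genes with 0 counts, drawn at the level that 3 counts would give. By reads placed at a single gene, Mir183, at 39.3 and 28.8 CPM, is the highest, and Mir383, at 4.00 and 10.9 CPM, is higher in replicate 2.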

How the data were processed

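For each library the authors deposited raw counts of reads, with 4 summary rows and 2202 miRNA genes in 3 columns (without regard to strand and for each strand). Per the deposited metadata text, the assembly was mm10 and the annotation GENCODE M21. Aligner and counting program: not given in the sources used here. The sense-strand column was used, whose total was 5.61 times the opposite strand's in replicate 1 and 5.47 times in replicate 2. The summary rows, 58.7% of the reads of replicate 1 and 60.7% of those of replicate 2, were left out of library totals. Counts are per hairpin, so arms cannot be told apart.

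All identifiers were found in M21. CPM use assigned counts. Ratios are replicate 1 over replicate 2 with edgeR TMM scaling and exact (Clopper-Pearson) 95% intervals, for genes that average 10 counts or more. The ratios and intervals were tried on simulated data with known folds and counting (Poisson) error only. That trial cannot show how they behave with differences between animals or repeat copies of molecules. Hairpin stretches from 14 nt up were searched in M21 hairpins only. The members and the marker lists were chosen with earlier results of these data known. Named beside the members were the genes next in level to detected members, miRNA genes within 10 kb, and up to 4 leading genes per list. Also named, outside that rule, were the Mir124a genes, Mir7-2 as a seed relative of Mir7b, Mir1a-1 for its shared stretch, and Mir208b for its ratio. Alternatives tried were DESeq2 size factors, plain totals, the unstranded column, other count minimums, a 2-fold limit, all reads as denominator, each library alone and stretches of 18 or 22 nt. Software: Python 3.11.15, scipy 1.17.1, R 4.3.3, edgeR 4.0.16, DESeq2 1.42.0.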

Additional observations from a re-analysis of the deposited data

Results flagged for a closer look

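Reads on the strand opposite to Mir338, which the gene's own value does not use, numbered 5 in replicate 1 and 13 in replicate 2. Both exceed the 3 counts that a count of 0 allows. They lie at Mir3065, annotated on that strand over 87 nt, where they are 1.25 CPM in replicate 1 and 2.57 CPM in replicate 2. No other of the 10 genes had a read on its opposite strand in either library.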

How the results depend on the processing

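The unstranded column lowered the share of the 10 genes to 0.0841% and their median level to 6.65 CPM, since it lists Mir338 at 0. With all reads as the denominator the share was 0.0458%. The number of members past 1.5-fold was 1 when a mean of 50 counts was required, which leaves 5 members with a ratio, and 3 under the unstranded column, DESeq2 size factors, plain totals, no count filter or a 2-fold limit. The share of all genes past 1.5-fold was 4.72% at a mean of 50 counts, 13.9 to 14.5% under the unstranded column and both scalings, and 33.7% with no filter, near the 3 of 8 members there. The ratios of the 7 members kept their sign under DESeq2 size factors and plain totals. Each library alone gave shares of 0.111 to 0.116%, median levels of 16.9 to 48.4 CPM, 7 detected members in each case, Mir128-1 over Mir128-2 ratios of 2.88 to 2.93 and Mir132 over Mir212 ratios of 21.5 to 56.2. With 2 libraries such values lie within 1 SD of the mean by construction. Detected members numbered 6 to 8 under the other counting choices, and 5 members shared a stretch at 18, 20 or 22 nt. No paired analysis was possible because there is 1 group. Mir212 and Mir7b rest on 10 to 61 counts a library, while reads inside the shared arms of the Mir9 genes are left out whatever the depth.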
